A study of Mus musculus with 144 samples.

Results

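Cytosolic ribosomal protein genes were followed through a mouse liver study of the hepatocyte clock and feeding. They were taken as every gene symbol of the form Rpl or Rps followed by a number, with an optional a, x or l, together with Rplp0, Rplp1, Rplp2 and Rpsa, and without names ending in -ps. The rule found 82 of 24421 gene symbols, 32 of the small and 50 of the large subunit, and where a symbol had several transcript rows the row with the largest mean was kept. All animals were male C57BL/6J mice on normal chow, and control animals (WT) were compared with animals labelled as a REV-ERB a/b double knockout induced in adult hepatocytes. The REV-ERB receptors are nuclear receptors that repress clock genes, and the table columns name a GFP vector for controls and a CRE vector for knockouts. Livers of both feeding schedules, ad libitum and reverse-phase, were sampled at ZT 1, 4, 7, 10, 13, 16, 19 and 22 (zeitgeber time, hours from lights on), and endothelial cells and Kupffer cells at ZT 4, 10, 16 and 22. Each of the 48 combinations of tissue, schedule, genotype and time had 3 libraries, which gave 48 liver libraries per schedule and 24 per isolated cell type.

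A cytosolic ribosome holds a small subunit, which decodes the messenger RNA, and a large subunit, which joins the amino acids, and each ribosomal protein is needed for assembly or function. The messenger RNAs of these proteins begin with a 5′ terminal oligopyrimidine tract (TOP), through which the nutrient-sensing kinase complex mTORC1 and the protein LARP1 control their translation, so their protein output can change while their RNA level does not. In liver, feeding is known to drive TOP translation and ribosome assembly over the day.

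The transcription starts show which members carry such a tract in the reference, and 5 starts with a tract and 4 without are printed because the results below turn on these genes. Sequences run 5′ to 3′ on the gene's strand from 10 bases before to 20 bases after the RefSeq start in build GRCm38.p6, and capitals mark the longest pyrimidine tract there, a C followed by at least 4 further pyrimidines, with that C within 10 bases of the start on either side.
Rps15a, small subunit, chr7:118116128-118116157, minus strand: tttctgccatCTTCCCTCgccggtgagtga
Rpl15, large subunit, chr14:18270967-18270996, minus strand: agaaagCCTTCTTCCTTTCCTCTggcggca
Rps6, small subunit, chr4:86857348-86857377, minus strand: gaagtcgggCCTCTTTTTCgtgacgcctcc
Rpl27a, large subunit, chr7:109519185-109519214, plus strand: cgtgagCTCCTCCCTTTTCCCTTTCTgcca
Rplp2, P stalk, chr7:141447641-141447670, plus strand: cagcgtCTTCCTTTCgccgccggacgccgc
Rpl4, large subunit, no tract at the annotated start, chr9:64173377-64173406, plus strand: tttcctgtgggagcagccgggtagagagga
Rpl27, large subunit, no tract at the annotated start, chr11:101442235-101442264, plus strand: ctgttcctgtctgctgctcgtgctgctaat
Rps15, small subunit, no tract at the annotated start, chr10:80292421-80292450, plus strand: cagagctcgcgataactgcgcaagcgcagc
Rplp0, P stalk, no tract at the annotated start, chr5:115559457-115559486, plus strand: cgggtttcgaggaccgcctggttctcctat
A start window was found for 61 of the 82 members. A tract of this definition was present in 39 of them (63.9%), against 34.4% of 27025 genes. Of the same members, 25 (41.0%) held CCGGAAG, the ETS family motif, on either strand of the window from 250 bases before to 50 after the start, against 9.93% of genes. The YY1 motif AAGATGG was in 9 members (14.8%, against 7.28% of genes) and the E-box CACGTG, which clock activators and MYC bind, in 6 (9.84%, against 8.09%). AGGTCA, a short core that sites of many nuclear receptors share, was in 7 members (11.5%, against 18.1%). It is not specific to REV-ERB or ROR receptors, whose longer sites were not searched. The D-box TTATGTAA was in 0 of 61, against 1.11% of genes. These are matches of letters in annotated windows.

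Ad libitum liver libraries held 4567612 to 10364900.5 counts and reverse-phase-fed liver libraries 13117814 to 26191933. The endothelial and Kupffer tables hold quantile-normalised signal, so their depth is unknown. The members took 0.490% to 0.758% of all counts ad libitum (median 0.614%) and 0.682% to 1.18% under reverse-phase feeding (median 0.873%). The libraries labelled knockout had higher Nr1d1 (REV-ERBα) RNA than controls, by 1.76 ± 0.15 (log2, SE) in ad libitum liver and 1.83 ± 0.15 in reverse-phase-fed liver, with higher Nr1d2 (REV-ERBβ) RNA by 1.11 ± 0.10 and 0.80 ± 0.08. Counts over the whole transcript do not isolate the deleted exons. Arntl (BMAL1), a target that REV-ERB represses, was higher by 1.62 ± 0.12 and 1.63 ± 0.10, and at ZT 10 ad libitum its 3 control libraries read 1.32, 1.2 and 1.84 CPM (counts scaled to a common library size) and the 3 knockout libraries 37.8, 40.5 and 40.4. Nr1d1, Nr1d2 and Arntl were not called between genotypes in endothelial or Kupffer cells. Endothelial markers summed to 72908 to 111594 in endothelial libraries and 8277 to 15464 in Kupffer libraries, and Kupffer markers to 112421 to 130992 in Kupffer libraries and 3733 to 16683 in endothelial libraries. In these bulk samples fewer cells of a type and less RNA per cell cannot be told apart, and the labels do not say whether replicates were separate animals, so the spread behind each p-value is that between libraries and may be technical.

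The members' transcripts were short, with a median of 700 bases (321 for Rps28 to 5127 for Rps15a), and 63 of 82 were under 1000 bases, against 22.7% of all genes. Many members also have processed pseudogenes. At a read length of 50 bases, chosen here because the read length is not given in the sources used, a median of 48.5% of a member's transcript was identical to other genes, 38 of 81 matched members shared more than 50%, and 78.6% of the sharing genes were pseudogenes. The share ran from 0, as in Rpl3l and Rpl39l, to 93.3% in Rpl9. How reads that fit several places were counted is not given in the sources used here, so the level of a member relative to another is uncertain. The rows kept for Rps27 and Rps4l are non-coding RefSeq transcripts.

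Ribosomal proteins are built into the ribosome in equal numbers apart from the stalk, but their RNA levels per length spanned a range of 395-fold. Over the 24 control libraries ad libitum, the tested members had a median of 59.6 CPM per kilobase (quartiles 15.7 and 134), against 5.6 for all tested genes. Rplp1, an acidic protein of the P stalk that recruits elongation factors, was highest at 531 ± 59 CPM per kilobase (SD, n = 24). Rpl41, the smallest ribosomal protein, followed at 507 ± 58, within its spread of Rplp1. Rpl4, a large-subunit protein that lines the exit tunnel, stood at 398 ± 35, and Rps15, of the small-subunit head, at 371 ± 43, again within the spread of each other. The lowest tested member was Rps27 at 1.34 ± 0.58, from its non-coding row. Its paralog Rps27l, known as a p53 target, read 199 ± 33, so that the paralog was above the parent in every library. Little was counted of 3 other paralogs. In 48 ad libitum libraries Rpl10l, a testis form, had 0 counts, Rpl39l reached at most 2 counts and Rpl3l, a striated muscle form, at most 3.5. Their parents Rpl10, Rpl39 and Rpl3 read 19.9, 69.4 and 33.0 CPM per kilobase. Rps13, with at most 7 counts, was also not tested ad libitum. The order of members was much alike in the 4 tables, with Spearman's rho between 0.838 and 0.935 as a description over members that share annotation and shared sequence. The highest level per length was that of Rpl4 in endothelial cells (1158) and of Rplp1 in Kupffer cells (1933), on the signal scale of each table.

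**Figure D1:**
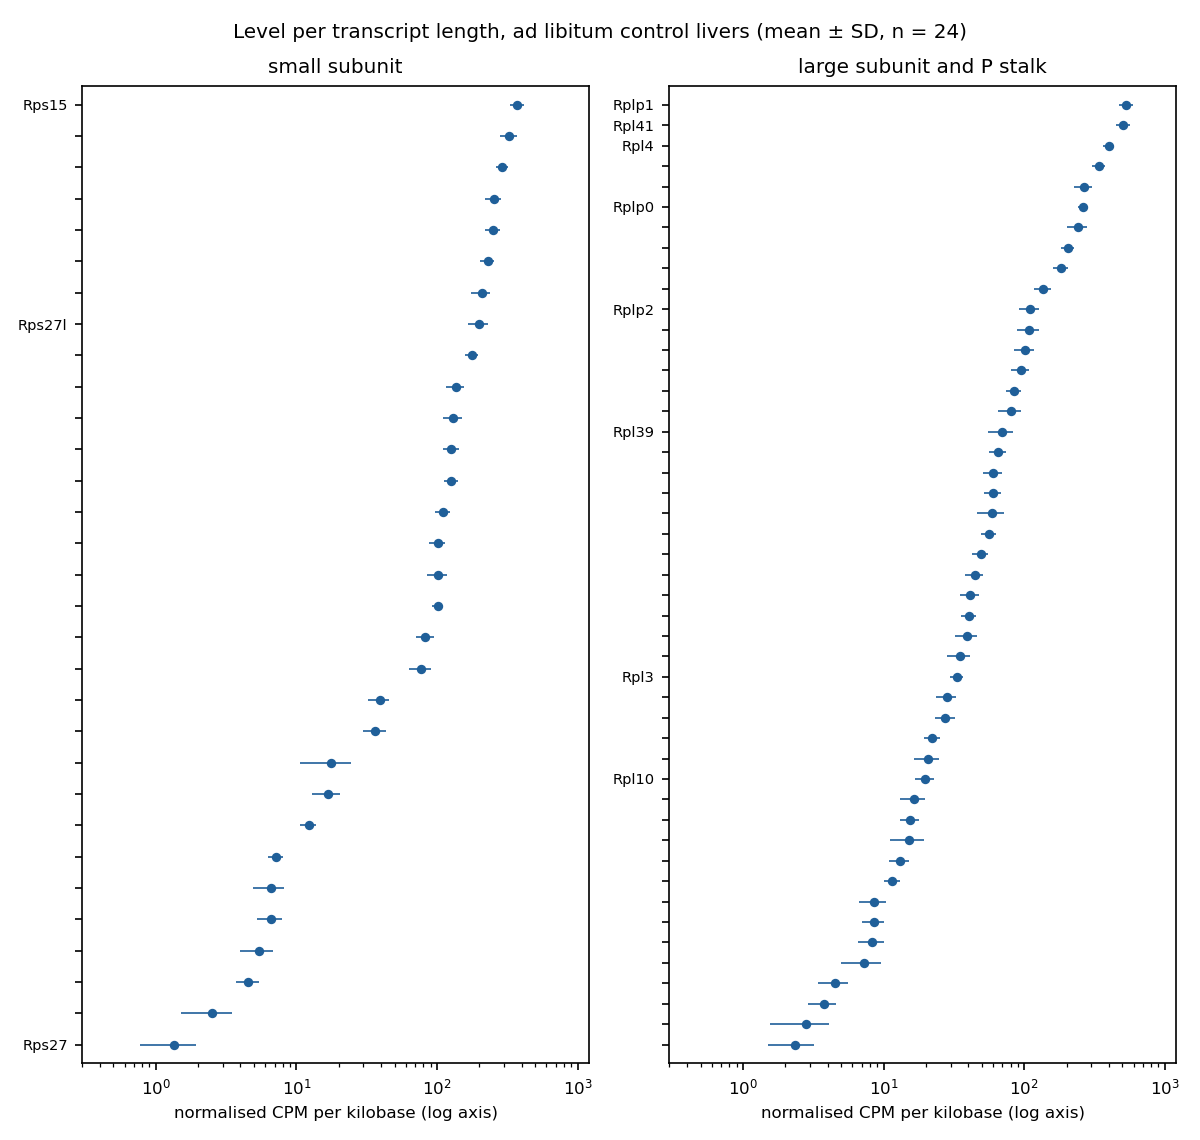
Level per length of each tested member (some labelled by name) in control ad libitum liver libraries, on a log axis in CPM per kilobase, with points for the mean and bars for the SD over 24 libraries, ordered by level within the small and the large subunit. Rplp1, Rpl41 and Rpl4 stand at the top and Rps27 at the bottom, a range of 395-fold.

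The liver tables gave some members very different levels. Because the tables were normalised separately and each schedule is its own table, schedule and table cannot be told apart and the values are set side by side with no test. Control means differed by more than 2-fold for 19 of 78 members (24.4%), against 13.8% of 881 other genes under 1000 bases and 2.72% of 12488 genes. Rpl32l read 16.2 CPM ad libitum and 1.46 under reverse-phase feeding, Rps16 read 23.8 and 3.63, and Rpl37 read 24.2 and 4.62. In the other direction Rps26 read 55.9 and 238, and Rps10 read 9.43 and 41.4. The levels of single members therefore differed in both directions between the tables, but more members were higher under reverse-phase feeding. The members' median log2 difference, reverse-phase over ad libitum, was 0.42, with quartiles of -0.04 and 0.84. That median was 0.41 for the other genes under 1000 bases and -0.03 for all genes tested in both.

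Within a table the members moved together from library to library. The median correlation between a pair of members over libraries was 0.515 ad libitum, 0.668 under reverse-phase feeding, 0.319 in endothelial cells and 0.304 in Kupffer cells, given as a description over libraries that share depth and processing. Libraries also differed in how expression depended on transcript length. A length slope was taken for each library as the change in log2 deviation from each gene's mean per doubling of transcript length, over genes other than the members, and it ran from -0.17 to 0.10 ad libitum and from -0.25 to 0.19 in reverse-phase-fed liver. The members' median deviation followed this slope, higher where short transcripts were favoured. Pearson's r was -0.902 and Spearman's rho -0.843 over 48 ad libitum libraries, and -0.948 and -0.945 over 48 reverse-phase-fed libraries, each with a permutation p of 1e-05, the smallest that 100000 resamples give (2e-05 after Benjamini-Hochberg adjustment over 8 relations). Over the 24 endothelial libraries r was -0.671 and rho -0.719 (two-sided permutation p = 0.0003 and 0.0002, adjusted 0.0003 and 0.0002), and over the 24 Kupffer libraries -0.767 and -0.752 (p = 3e-05 and 4e-05, both 5e-05 adjusted). Without the 2 libraries farthest in slope, r was -0.852, -0.944, -0.652 and -0.728. The permutations treated libraries as exchangeable, although those of a group share genotype and time. Because most members are short, a negative relation follows in part from the slope itself. The main counts of members called are therefore given also with the length trend taken out, a smooth curve of deviation on length fitted in each library without the members.

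**Figure D2:**
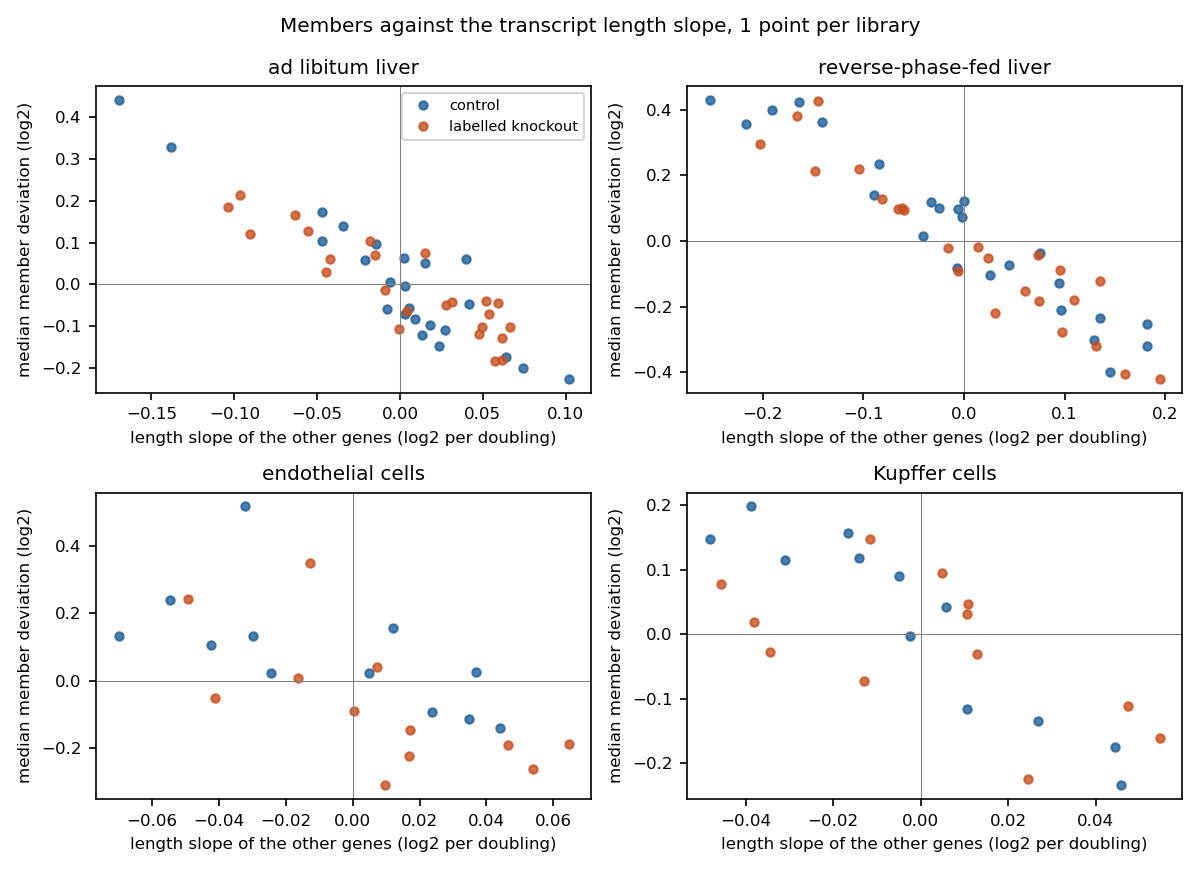
Median log2 deviation of the members from their means (vertical axis) against the length slope (horizontal axis, log2 per doubling of transcript length) for each library in the 4 tables, with control and knockout libraries in separate colours. Members were higher in libraries whose slope was negative, with r between -0.948 and -0.671.

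The genotype comparison asked whether loss of REV-ERB in hepatocytes changed the daily mean of the members. Almost none changed ad libitum. Of 78 tested members 1 was higher and 2 lower in knockout libraries at an adjusted p under 0.05 (edgeR quasi-likelihood), where 13.7% and 13.5% of 12534 genes were higher and lower. The members' median log2 difference was -0.01, against 0.00 for all genes. Rpl4 (transcript NM_024212, chr9:64021194-64026369, plus strand, mm9) read 496 to 694 CPM with a median of 549 in 24 control libraries and 542 to 693 with a median of 609 in 24 knockout libraries. The groups overlapped over most of their range, and Rpl4 rose by 0.14 ± 0.03 (log2, SE; adjusted p = 0.00156). Rpl17, which sits at the exit of the tunnel, read 1.76 to 4.24 CPM (median 2.69) in controls and 0.871 to 3.79 (median 2.18) in knockouts, again overlapping, and fell by 0.37 (SE 0.11, adjusted p = 0.00544). Of the stalk proteins, Rplp1 read 206 to 310 CPM (median 244) in controls and 173 to 271 (median 224) in knockouts and fell by 0.13 (SE 0.05, adjusted p = 0.0325). That call was lost without the control library that stood apart (adjusted p = 0.061). Rplp0, the stalk base, and Rplp2 differed by 0.05 ± 0.03 and -0.06 ± 0.06 and were not called. With the length trend taken out 6 were higher and 3 lower, against 15.2% and 14.1% of genes, with the 3 members named above among them. The share of members called, 3.85% and then 11.5%, stayed below the 27.2% and 29.3% of all genes. Alb, the main hepatocyte marker, was lower in knockouts by 0.36 (log2) in ad libitum liver and by 0.42 in reverse-phase-fed liver. The endothelial marker Stab2 was higher by 0.44 and 0.46, and the Kupffer marker Clec4f was not called (-0.04 and 0.01). The median sum of the 9 measured hepatocyte markers in ad libitum liver was higher in knockouts at ZT 4, 10 and 13. It was lower in knockouts at ZT 1, 7, 16, 19 and 22. In reverse-phase-fed liver this median was lower in knockouts at every sampled time. The part of cell composition in the small differences of the members was not tested.

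Under reverse-phase feeding 1 of 79 tested members rose and 5 fell, where 12.7% and 14.2% of 13810 genes did (26.9% in all), and the median member difference was -0.07 against -0.01 for all genes. Rpl4 was again the member that rose, by 0.12 ± 0.04 (adjusted p = 0.0337), with 482 to 738 CPM (median 592) in controls and 502 to 814 (median 619) in knockouts. The groups overlapped nearly throughout. In the small subunit Rps27l read 158 to 383 CPM (median 240) in controls and 141 to 311 (median 198) in knockouts and fell by 0.22 (SE 0.07, adjusted p = 0.0189). In the large subunit Rpl10a read 3.8 to 10.4 CPM (median 7.01) and 2.57 to 9.88 (median 4.97) and fell by 0.41 (SE 0.10, adjusted p = 0.000978). Rpl35a, whose human form is mutated in Diamond-Blackfan anaemia, read 22.5 to 55.9 CPM (median 36) and 17.4 to 41.0 (median 29.8) and fell by 0.35 (SE 0.08, adjusted p = 0.000689). Its medians differed while its ranges overlapped. Rpl39, a small protein of the exit tunnel, read 27.6 to 72.5 CPM (median 43.8) and 22.9 to 54.3 (median 35.8) and fell by 0.29 (SE 0.09, adjusted p = 0.0128). Rpl27 read 2.03 to 4.49 CPM (median 3.02) and 1.45 to 4.99 (median 2.87) and fell by 0.19 (SE 0.07, adjusted p = 0.0272), which was no longer called with the length trend taken out (adjusted p = 0.122). With the trend out 4 members rose and 6 fell, against 16.1% and 15.6% of genes, and Rpl4, Rpl10a, Rpl35a, Rpl39 and Rps27l kept their calls. The genotype effect was not called as different between schedules for any of 79 members in a joint edgeR fit of both liver tables, where 0.207% of 13535 genes were called and 4 members had an unadjusted p under 0.05. The number of all genes at that unadjusted p is not given here. The joint count was 1 with the length trend taken out, where 0.436% of genes were called. Without 1 replicate number at a time, the ad libitum rise of Rpl4 was lost without replicate 3 and its reverse-phase rise without any of the 3.

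Daily rhythm was tested as a 24-hour cosine in each genotype, and the size of a rhythm is given as the fitted ratio of peak to trough. Ad libitum, 6 of 78 members (7.69%) were rhythmic in controls, where 48.1% of genes were. In knockouts 0 were, where 44.1% of genes were (edgeR, and DESeq2 also called 0). At an unadjusted p under 0.05 there was 1 member in knockouts, against 6465 of 12534 genes. The median peak-to-trough ratio of the members was 1.13 in controls and 1.09 in knockouts, against 1.33 and 1.29 for all genes. Rps6, the small-subunit protein that S6 kinase phosphorylates, ranged 1.43-fold with a peak at ZT 17.9 (adjusted p = 0.00568). Its 3 control libraries read 9.30, 6.92 and 7.08 CPM at ZT 19 and 6.01, 5.34 and 4.05 at ZT 7, which do not overlap. Rps12 ranged 1.47-fold at ZT 8.50 (adjusted p = 0.0336, and 0.0508 with the trend out). In the large subunit Rpl22 ranged 1.28-fold at ZT 6.73 (adjusted p = 0.0011), with 113, 98.1 and 112 CPM at ZT 4 and 84.8, 74.9 and 73.3 at ZT 19. Others were Rpl10a (1.29-fold at ZT 13.2) and Rpl18 (1.23-fold at ZT 13.6), and the 6 peaks were spread from ZT 6.73 to ZT 17.9. A difference of rhythm between genotypes was called for 0 members, also by DESeq2 (3.31% of genes in edgeR, 3.71% with the length trend taken out). At an unadjusted p under 0.05 there was 1 member, against 1766 of 12534 genes. With the length trend taken out, 9 members were rhythmic in controls and 6 in knockouts, against 49.7% and 46.7% of genes. When time was fitted as 8 separate levels in place of a cosine, 40 of 78 members varied over time in controls, where 44.8% of genes did. In knockouts 14 did, where 39.7% of genes did. The control share was thus above that of all genes in this fit, made with the length trend left in, and below it in the cosine fit. The members' median deviation in controls averaged 0.19 (SD 0.14) at ZT 4 and 0.18 (SD 0.25) at ZT 16. It averaged -0.16 at ZT 1, -0.08 at ZT 10 and -0.10 at ZT 22. A 24-hour cosine has a single peak and cannot follow several rises a day. Without any 1 replicate number the cosine gave 1 to 4 in controls, in fits with fewer libraries whose shares of all genes are not given here.

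Under reverse-phase feeding most members were rhythmic. In controls 56 of 79 (70.9%) passed, against 41.2% of genes, and in knockouts 40 (50.6%), against 36.8%, with 34 in both. The peaks were close together: 54 of the 56 control peaks fell between ZT 10 and ZT 16 (median ZT 12.7). So did 38 of the 40 knockout peaks (median ZT 13.3). Among all rhythmic genes 28.0% of control and 26.4% of knockout peaks fell there, and among other genes under 1000 bases 72.7% and 69.3%. With the length trend taken out, 17 of 21 control and 18 of 23 knockout peaks of the members fell there. The shares were then 24.1% and 23.4% for all rhythmic genes, and 26.6% and 31.5% for the other short ones. Both subunits took part, with 23 of 32 small-subunit and 33 of 47 tested large-subunit members rhythmic in controls. With the length trend taken out these counts were 8 and 13. The largest control rhythms were those of Rpl37 (2.0-fold at ZT 10.7), Rps28 (1.97-fold at ZT 12.3), Rpl13 (1.94-fold at ZT 11.2), Rpl38 (1.76-fold at ZT 11.5) and Rpl39 (1.74-fold at ZT 12.2). Of these, Rpl38 did not pass with the length trend taken out. Rps28, the shortest member, read 26.7, 15.7 and 15.2 CPM at ZT 7 and 7.36, 11.5 and 13.6 at ZT 1, and Rpl13 read 13.2, 9.17 and 7.65 and 5.04, 6.41 and 6.46 at the same times. The 3 libraries of these times did not overlap for either gene, which only describes 2 selected times and is not a test. The highest ZT 7 value of each gene came from replicate 1, whose length slope of -0.25 was the lowest in reverse-phase-fed liver. The stalk members Rplp1 and Rplp2 ranged 1.42-fold and 1.51-fold in controls and 1.53-fold and 1.45-fold in knockouts. Rplp0 ranged 1.29-fold in knockouts, and all of these peaked between ZT 12.5 and ZT 13.8. In controls Rplp0 (1.25-fold, adjusted p = 0.0527) did not pass. With the length trend taken out, only the knockout rhythm of Rplp1 passed among the stalk members.

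The length trend moved with this rhythm, and the count of rhythmic members fell when it was taken out. The mean length slope in controls was 0.13 at ZT 1 and -0.10 at ZT 7, and in knockouts 0.16 at ZT 4 and -0.06 at ZT 10. The members' median deviation was -0.25 ± 0.14 (log2, SD, n = 3) and 0.22 ± 0.19 in those control groups and -0.38 ± 0.05 and 0.16 ± 0.24 in those knockout groups. With the trend taken out, 21 members (26.6%) were rhythmic in controls, against 41.7% of genes, and all 21 were among the 56, while 23 (29.1%) were rhythmic in knockouts, against 40.3%, and 22 of them were among the 40. The members' median ratio of peak to trough went from 1.42 to 1.18 in controls and from 1.34 to 1.16 in knockouts. The other 1080 genes under 1000 bases were rhythmic in 39.6% of cases in controls, and 34.2% with the trend out. A share of rhythmic members above that of all genes was thus present before and not after the length trend was removed, and whether the trend arose in the animals or in the libraries was not tested. The counts were lower in fits without 1 replicate number, with 21 control rhythms without replicate 1 and 2 knockout rhythms without replicate 3. Those fits held fewer libraries for every gene, and their shares of all genes are not given here. Whether the falls were particular to the members therefore cannot be told.

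Some members passed in either form. Rps15a, the member with the longest transcript, ranged 1.47-fold in controls and 1.48-fold in knockouts with peaks at ZT 13.1, and 1.69-fold and 1.64-fold with the trend out. Its control libraries read 40.0, 47.8 and 49.2 CPM at ZT 1 and 80.7, 82.1 and 65.8 at ZT 13, and its knockout libraries 52.3, 43.9 and 44.5 and 68.0, 65.0 and 76.5, so ZT 13 lay above ZT 1 in both genotypes. Rpl27 ranged 1.60-fold in controls and 2.07-fold in knockouts (peaks ZT 9.46 and ZT 10.3), and 1.48-fold and 1.76-fold with the trend out. Its knockout libraries read 3.86, 3.74 and 4.99 CPM at ZT 10 and 2.21, 2.54 and 1.45 at ZT 19, which do not overlap. Rpsa, the small-subunit protein also known as the laminin receptor, ranged 1.34-fold in controls and 1.40-fold in knockouts, and 1.26-fold and 1.32-fold with the trend out. Rpl10a differed from the others in phase, with a knockout peak at ZT 2.54 (1.61-fold, adjusted p = 0.0139; 1.90-fold at ZT 1.99 with the trend out). Among the knockout rhythms, Rps23 (1.80-fold), Rpl36a (1.77-fold) and Rpl38 (1.62-fold) passed only with the trend left in, with adjusted p of 0.11, 0.0676 and 0.192 without it. A difference of rhythm between genotypes was called for 0 of 79 members, also by DESeq2 (1.48% of genes in edgeR, 2.32% with the trend out). At an unadjusted p under 0.05 there was 1 member, against 1478 of 13810 genes.

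**Figure D3:**
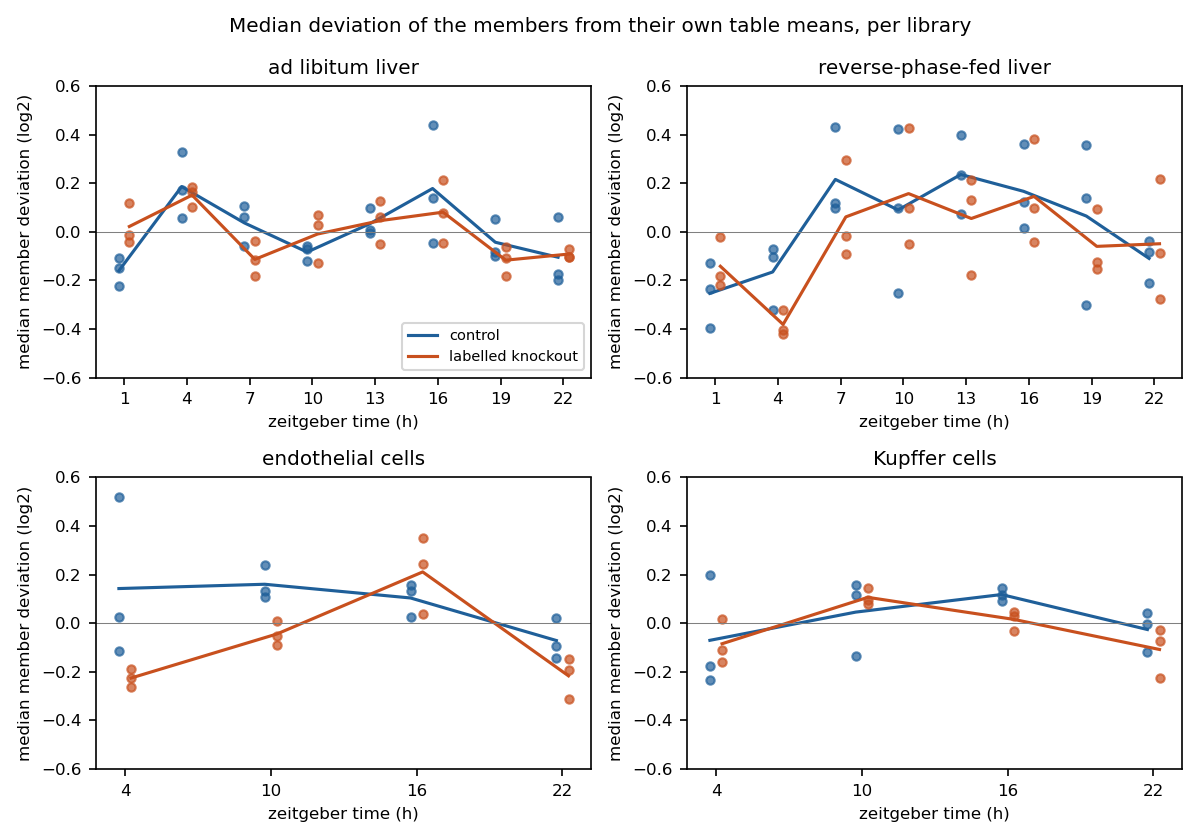
Median log2 deviation of the members by ZT in the 4 tables, each point a library and lines through the mean of 3, with control and knockout in separate colours. In reverse-phase-fed liver the control mean runs from -0.25 at ZT 1 to 0.24 at ZT 13 and the knockout mean from -0.38 at ZT 4 to 0.16 at ZT 10.

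**Figure D4:**
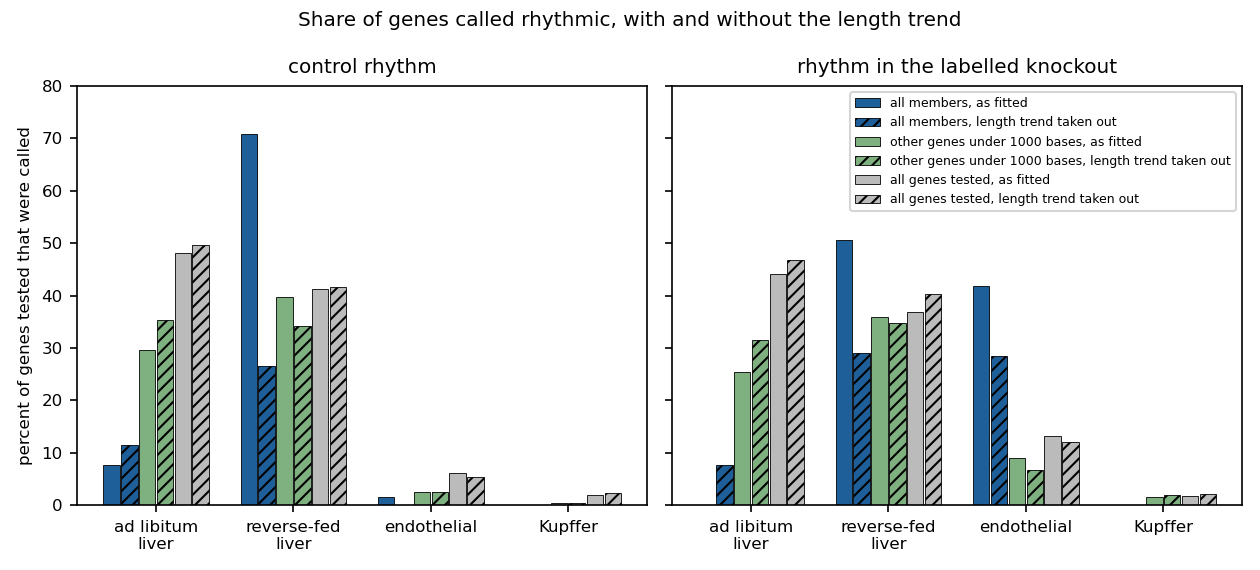
Percent of genes called rhythmic in controls and in knockouts in the 4 tables, for the members, the other genes under 1000 bases and all tested genes, with hatched bars for the fits with the length trend taken out. In reverse-phase-fed controls the members fall from 70.9% to 26.6% while all genes stay near 41.2% and 41.7%.

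The joint fit asked whether rhythms differed between the schedules. The control rhythm differed for 26 of 79 members (32.9%), against 53.6% of genes, and the knockout rhythm for 29 (36.7%), against 49.0%. Both shares lay below those of all genes, and they were 21 and 25 members with the trend taken out, against 56.3% and 51.9% of genes. Since schedule and table cannot be told apart, a difference may belong to either. Rpl22, a large-subunit protein not needed for protein synthesis as such, had the smallest p in controls (0.000181), with peaks at ZT 6.73 ad libitum and ZT 14.5 under reverse-phase feeding. Rpl27a (0.000528) peaked at ZT 14.0 under reverse-phase feeding and ranged 1.21-fold at ZT 23.8 ad libitum, which was not called. Rpl15 (0.00164 in controls and 0.000333 in knockouts) ranged 1.37-fold at ZT 13.3 in reverse-phase-fed controls and 1.13-fold at ZT 23.9 ad libitum, the latter not called. The stalk member Rplp1 had adjusted p of 0.00572 and 0.000493, Rps15a of 0.00533 in controls, and Rpsa of 0.0013, Rps2 of 0.00528 and Rps26 of 0.00534 in knockouts. Without replicate 3 a difference was called for 2 members in knockouts and 15 in controls, and without replicate 1 the counts were 18 and 6. These fits held fewer libraries for every gene, and their shares of all genes are not given here.

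Endothelial cells came from the same kinds of mice, in which the labels place the deletion in hepatocytes. There the fitted rhythm of some members differed between genotypes. In knockout libraries 28 of 67 tested members (41.8%) were rhythmic, against 13.2% of 12523 genes (limma on log2(signal + 1)), and in control libraries 1 was, against 6.13%. A rhythm difference between genotypes was called for 8 members (11.9%), against 2.04% of genes: Rps15, Rps7, Rpsa, Rps9, Rps21, Rpl3, Rpl8 and Rplp0. The genotype effect on the daily mean was called for 0 members (0.0319% of genes), with a median log2 difference of -0.16 against -0.01 for all genes. At an unadjusted p under 0.05 there were 18 of 67 members, against 676 of 12523 genes. With the length trend taken out these counts were 10 and 662. The knockout peaks had a median of ZT 16.2.

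Rps15 (transcript NM_009091, chr10:79755176-79756859, mm9) was among the largest of these rhythms and had the smallest p for a difference, together with Rps7. Its 3 control libraries read 451, 258 and 301 at ZT 4, 354, 460 and 453 at ZT 10, then 252, 217 and 343 at ZT 16, then 203, 244 and 230 at ZT 22. Its knockout libraries read 197, 199 and 149, then 183, 234 and 187, then 478, 485 and 306, then 211, 279 and 483. Controls were high at ZT 10 and knockouts at ZT 16, and at ZT 4 and ZT 10 all 3 control libraries lay above all 3 knockout libraries. The fitted knockout rhythm was 2.53-fold with a peak at ZT 17.8 (adjusted p = 0.00757), the control rhythm 1.92-fold at ZT 8.77 (adjusted p = 0.0607), and their difference had an adjusted p of 0.0296. Rps7 had a fitted knockout peak at ZT 17.6 and a fitted control peak at ZT 8.05, but its control rhythm was not called (difference adjusted p = 0.0296). Rpsa (NM_011029, chr9:120036884-120041487, mm9) read 140, 166 and 168 in controls and 93.1, 105 and 95.4 in knockouts at ZT 10, and 131, 106 and 152 against 208, 182 and 133 at ZT 16. Its difference had an adjusted p of 0.0309, and that of Rps9 of 0.0441. In the stalk, Rplp0 read 544, 648 and 721 in controls and 376, 439 and 356 in knockouts at ZT 10, and 423, 347 and 500 against 686, 752 and 456 at ZT 16 (difference adjusted p = 0.0334). Rplp0 was also the only member rhythmic in controls (1.76-fold at ZT 9.33, adjusted p = 0.0387; 0.0609 with the trend out, where 5.41% of genes passed). Rplp1 and Rplp2 were not called for a difference (adjusted p = 0.162 and 0.556). The largest knockout ranges beside these were those of Rpl29 (2.82-fold, adjusted p = 0.0493) and Rps21 (2.28-fold, adjusted p = 0.0112), and at ZT 22 the 3 Rpl29 libraries read 39.9, 32.6 and 168.

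These endothelial results rest on few libraries. With the length trend taken out 19 of the 28 knockout rhythms and 7 of the 8 differences remained, against 12.1% and 2.33% of genes, but with each library's length slope as a covariate 6 rhythms and 0 differences did, and without any 1 replicate number 2 to 6 rhythms and 0 differences. Without the 2 knockout ZT 22 libraries that stood apart there were 25 rhythms and 5 differences. For the covariate fit and the fits with fewer libraries, the shares of all genes are not given here. The 9 measured hepatocyte markers of the list of 10 summed to between 8132 and 126150 over endothelial libraries (median 21920), and in the knockout ZT 22 group to between 8768 and 126150, with 0 of the 9 at 0 in any library. At ZT 10 the sums were 14414 to 50412 in controls and 20355 to 39871 in knockouts, and at ZT 16 13210 to 46366 and 9826 to 20852. All 8 marker lists were compared between genotypes at each of the 4 times, with no test. Among so many comparisons of 3 against 3 libraries, some can separate by chance. The sums of some other lists did not overlap between genotypes at single times. Neutrophil and monocyte markers (6) summed at ZT 16 to 152 to 321 in controls and 37.4 to 70.7 in knockouts, with 2 and 3 of the 6 at 0 in some library. Lymphocyte markers (6) summed at ZT 16 to 21.6 to 41.25 and 12.9 to 20.9, with 1 and 2 at 0 in some library. Cholangiocyte markers (5) were higher in knockouts at ZT 4, at 192 to 329 against 69.7 to 136, with 0 and 1 at 0 in some library. Endothelial markers were lower in knockouts at ZT 22, at 72908 to 104320 against 105846 to 107661. The part of RNA from other cells in the result was not tested.

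**Figure D5:**
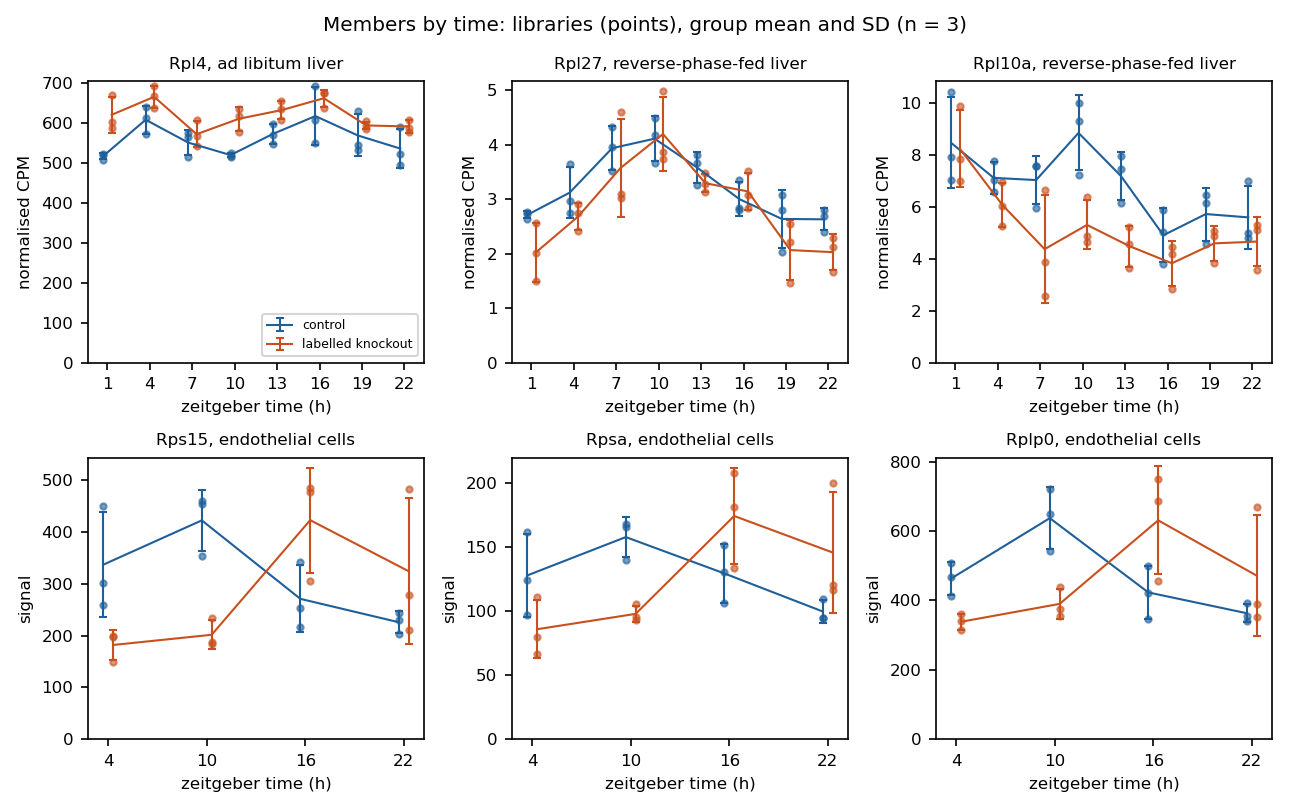
Values of example members by ZT, each point a library, with lines and bars for the mean and SD of 3, in CPM for Rpl4, Rpl27 and Rpl10a in liver and in deposited signal for Rps15, Rpsa and Rplp0 in endothelial cells, with control and knockout in separate colours. Rps15 reads 354 to 460 in controls and 183 to 234 in knockouts at ZT 10.

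In Kupffer cells, the resident macrophages of the liver, 0 of 71 tested members were called for a genotype effect (0.0244% of 12270 genes), a control rhythm (1.96%), a knockout rhythm (1.81%) or a rhythm difference (0.0%) by limma. At an unadjusted p under 0.05 the counts were 1, 8, 14 and 1 of 71 members, against 488, 1942, 1970 and 279 of 12270 genes. The members' median peak-to-trough ratio was 1.23 in controls and 1.22 in knockouts, and their median genotype difference was -0.05. Rplp1 read 732 to 1062 in 12 control libraries (median 909) and 702 to 1141 in 12 knockout libraries (median 898), which overlap. Rpl4 read 2195 to 2837 (median 2658) and 2225 to 2934 (median 2606), overlapping as well.

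Other genes of the pathway were read from lists beside the members. Ribosome assembly and RNA polymerase I genes, which build the rRNA and the subunits, were rhythmic ad libitum for 33 of 40 in controls (82.5%) and 35 in knockouts (87.5%), where 48.1% and 44.1% of all genes were, with mean peaks at ZT 15.0 and ZT 13.7. Under reverse-phase feeding 26 were rhythmic in each genotype (65%), where 41.2% and 36.8% of all genes were, with mean peaks at ZT 3.93 and ZT 5.4. Rrp12 ranged 2.48-fold at ZT 16.4 in ad libitum controls and 2.22-fold at ZT 4.95 in reverse-phase-fed controls, and Nolc1 2.35-fold at ZT 17.0 ad libitum. Genotype effects were called for 2 higher and 1 lower ad libitum and 0 and 2 under reverse-phase feeding, where 27.2% and 26.9% of all genes were called, Nop16 being lower by 0.27 and 0.23 on the log2 scale. Of 17 other TOP transcripts 11 were rhythmic in each genotype ad libitum (64.7%), and 7 (41.2%) and 6 (35.3%) under reverse-phase feeding, the latter near the shares of all genes. Eif4b, an initiation factor, ranged 1.73-fold at ZT 6.61 ad libitum and 1.79-fold at ZT 20.3 under reverse-phase feeding in controls. In endothelial cells 2 (11.8%) and 7 (41.2%) of these were rhythmic in controls and knockouts, where 6.13% and 13.2% of all genes were, and Eef2, the elongation factor, peaked at ZT 10.2 in controls (1.74-fold) and ZT 17.1 in knockouts (1.87-fold). Of 77 mitochondrial ribosomal protein genes, which belong to a separate ribosome, 30 (39.0%) and 16 (20.8%) were rhythmic in ad libitum controls and knockouts and 32 (41.6%) and 43 (55.8%) in reverse-phase-fed ones. Of the 77, 6 rose and 2 fell with genotype ad libitum (10.4%). Of 25 mTORC1 pathway genes 16 (64%) and 18 (72%) were rhythmic ad libitum in controls and knockouts and 15 (60%) and 11 (44%) under reverse-phase feeding. Eif4ebp3, a repressor of cap-dependent translation, ranged 5.51-fold at ZT 15.2 ad libitum and 4.08-fold at ZT 20.5 under reverse-phase feeding, and Ddit4, an inhibitor of mTORC1, was lower in knockouts by 0.87 on the log2 scale under reverse-phase feeding. Of 9 transcription factors of ribosomal protein promoters 5 were rhythmic in each genotype ad libitum (55.6%), and 5 (55.6%) and 4 (44.4%) under reverse-phase feeding. E2f1 was higher in knockouts by 0.40 ad libitum and 0.45 under reverse-phase feeding on the log2 scale.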

How the data were processed

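RNA-seq libraries were made with TruSeq from RNA of liver, endothelial cells and Kupffer cells, per the labels' protocols. STAR, HOMER and build mm9 are named in the submitters' processing notes, with no versions. The deposited liver tables hold expected counts in steps of 0.5 (rounded here), and the deposited endothelial and Kupffer tables hold signal whose columns share the same sorted values, so they were quantile normalised before deposit. No source used here gives the read length or the handling of reads that map to several places.

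Liver was fitted with edgeR 4.0.16 (TMM, filterByExpr, robust quasi-likelihood) and isolated cells with limma 3.58.1 on log2(signal + 1) for genes reaching 10 in 3 or more libraries, in R 4.3.3. The model held genotype and a 24-hour cosine and sine per genotype, and both liver tables also entered a joint fit. Calls had a Benjamini-Hochberg adjusted p under 0.05 over all genes tested. The length trend was a natural spline with 4 degrees of freedom. The edgeR and limma cosine fits, as fitted and with the length trend taken out, were tested on simulated data for ad libitum liver and endothelial cells. DESeq2 1.42.0, time as a factor, the replicate block, other filters, pseudocounts and scalings, and leaving out replicates were alternatives; the fit without libraries beyond 3 median absolute deviations of their table was added after seeing the data.

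The members and lists were chosen with earlier results of these data known. Named were the 5 largest called rises, falls and rhythms and the 5 smallest p for rhythm differences per comparison, the highest and lowest level, the P stalk, the paralogs with their parents, and up to 2 called genes of each other list; further members were named after their values were seen. Replicate numbers were not treated as pairs in the main fits. No 2 libraries held identical values. Promoter sequences and start sites came from RefSeq (GRCm38.p6), and table coordinates are those of the files (mm9). Some members are counted but not reported by name here. The times at which single libraries are printed were selected from those sampled, so a lack of overlap at them is a description.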

Additional observations from a re-analysis of the deposited data

Results flagged for a closer look

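In these results the difference between groups itself passed a test. In endothelial cells 8 members had a rhythm that differed between control and knockout libraries (limma, adjusted over all genes), 11.9% of the members tested against 2.04% of all genes. With each library's length slope as a covariate, with time as a factor, or without any 1 replicate number, 0 members were called for a difference. The shares of all genes in those fits are not given here. The adjusted p was 0.0296 for Rps15 and for Rps7, 0.0309 for Rpsa, 0.0334 for Rplp0 and 0.0441 for Rps9.

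Between feeding schedules, 26 members (32.9%) had a control rhythm that differed (edgeR, joint fit), against 53.6% of all genes, and 6 to 18 without any 1 replicate number. The adjusted p was 0.000181 for Rpl22, 0.000528 for Rpl27a, 0.00164 for Rpl15, 0.00533 for Rps15a and 0.00572 for Rplp1. In knockouts 29 members (36.7%) differed, against 49% of all genes, and 2 to 22 without any 1 replicate number. Among them were those with an adjusted p of 0.000333 for Rpl15, 0.000493 for Rplp1, 0.0013 for Rpsa, 0.00528 for Rps2 and 0.00534 for Rps26. Schedule and table cannot be told apart here. For the fits without a replicate number, the shares of all genes are not given.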

How the results depend on the processing

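Counts of members called are given as ad libitum liver, reverse-phase-fed liver, endothelial cells, joint liver fit. Shares of all genes are given above for the length trend and for ad libitum rhythms with time as a factor. For the other fits they are not given. A changed count there shows how the calls depend on the processing and is not a result about the members. With the length trend taken out, there were 6 members higher ad libitum and 4 in reverse-phase-fed liver, 6 ad libitum knockout rhythms, 21 and 23 reverse-phase control and knockout rhythms, 0 endothelial control rhythms and 1 genotype by feeding difference were called. With the length slope as a covariate, 3 rose and 6 fell ad libitum with 4 knockout rhythms, 5 rose and 15 fell under reverse-phase feeding with 18 control rhythms, and endothelial cells had 0 control rhythms, 6 knockout rhythms and 0 differences. With time as a factor, 2 rose and 6 fell ad libitum with 40 control and 14 knockout rhythms, reverse-phase controls had 32, and endothelial cells had 0 control rhythms and 0 differences. Asking for at least a 1.2-fold change left 0 higher and 1 lower ad libitum and 0 and 3 under reverse-phase feeding. The longest transcript per gene, and a mean of at least 1 CPM, each gave 1 ad libitum knockout rhythm. Without a filter on low genes, endothelial cells had 0 control rhythms and 4 differences, and a value of at least 50 gave 4 control rhythms. Without the libraries that stood apart, 1 fell ad libitum with 1 knockout rhythm, and endothelial cells had 5 control rhythms and 5 differences. Leaving out each replicate number gave ad libitum 0 to 1 higher, 0 to 3 lower and 1 to 4 control rhythms, reverse-phase 0 higher, 1 to 9 lower, 21 to 39 control and 2 to 45 knockout rhythms, endothelial 0 control, 2 to 6 knockout rhythms and 0 differences, and joint 6 to 18 control and 2 to 22 knockout differences. The cause of these changes was not tested. Kupffer counts were 0 throughout these alternatives. DESeq2's test and size factors gave counts within 1.5 times of the edgeR ones.

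The replicate block gave 0 endothelial control rhythms and 4 differences. It moved no other count by over 1.5 times. The numbers share only a number: same-numbered libraries had a median correlation of deviations of 0.011, 0.023, 0.019 and 0.043 in the 4 tables, with a lowest value of -0.58, and 21 of 48, 22 of 48, 9 of 24 and 9 of 24 libraries were closest to their own number. Of the values for single members 610 kept direction and call, 118 lost and 6 gained a call, and 2 turned sign, both uncalled throughout: under reverse-phase feeding the difference of Rplp2 was 0.0364 with the length trend taken out, and that of Rpl10 was -0.0466 without replicate 2 and 0.0693 without replicate 3.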
